A study of Caenorhabditis elegans with 4 samples.

Results

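The genes described are 6 dod genes (dod-3, dod-17, dod-19, dod-21, dod-22 and dod-24) and 2 genes of the CUB-like family, F55G11.4 (now mbug-1) and C32H11.9 (now cld-1). They are 8 of 19852 loci in the deposited tables, found by gene name. The names were chosen by the levels and ratios of these same libraries in an earlier look, so the values are a description, with no test. The animals were N2, the wild-type strain of Caenorhabditis elegans, grown at 20 °C on plates for feeding RNAi. From day 1 of adulthood they spent 36 h in normoxia or, in a chamber at room temperature, at 0.5% oxygen with nitrogen as the rest, and RNA was taken from whole worms. In feeding RNAi the worms eat bacteria carrying a double-stranded RNA, here against elt-2, or an empty vector as control. Each of the 4 combinations of food and oxygen has 1 library, so no value has a replicate error. Below, control food means the empty vector, and elt-2 food means the libraries labelled elt-2 RNAi.

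The name dod stands for downstream of DAF-16, a FOXO factor that stays out of the nucleus while the insulin receptor DAF-2 signals. When DAF-2 signalling is low, class 1 targets such as dod-3 are known to be higher, and class 2 genes, to which dod-17, dod-19, dod-21, dod-22 and dod-24 belong, are known to be lower. Several class 2 genes encode CUB-like proteins made in the intestine, and dod-22 and dod-24 are commonly followed as readouts of the response to bacterial infection. ELT-2 is the main GATA factor of the differentiated worm intestine and binds GATA sites near many intestinal genes.

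The targeted gene went against its label, and this touches every comparison between foods. elt-2 was at 4.81 RPKM (mapped reads scaled by transcript length and by library size) with control food in normoxia, and at 15.2 in hypoxia. With elt-2 food its values were 14.3 and 23.8 RPKM, so the tables show no lower elt-2 level under that label. Whether reads of the RNAi construct were counted there was not tested, so these values need not be the level of the animals' own elt-2 transcript. The summed RPKM of a library lay between 960654 and 1127063, and 10462 to 11048 loci reached 1 RPKM.

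Of the 8 genes, 6 lie on 1 stretch of chromosome IV, from 12935027 to 12978320 (ce10), a span of 43.3 kb that holds 14 annotated loci. In genome order these are C32H11.9 (minus strand, 12935027 to 12936247), dod-21 (plus, 12936728 to 12937924), dod-24 (minus, 12940118 to 12941344), dod-22 (plus, 12965363 to 12967294), F55G11.4 (plus, 12973612 to 12975567) and dod-17 (plus, 12976269 to 12978320). The other two are on chromosome V, dod-19 on the minus strand from 411783 to 414761 and dod-3 on the minus strand from 2730592 to 2731095. In the current annotation the longest transcripts of C32H11.9, dod-21 and dod-24 have 3 exons and 1150, 1140 and 1157 bp of exon. Those of dod-22, F55G11.4 and dod-17 have 8 exons and 1255, 1101 and 1140 bp. dod-3 is the shortest, with 2 exons and 420 bp, and dod-19 has 6 exons and 1396 bp.

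C32H11.9 and dod-21 point away from each other with 480 bp between them. On the outer side of each lies a locus of 844 bp at a distance of 279 bp, C32H11.11 beside C32H11.9 and C32H11.8 beside dod-21, so the arrangement is mirrored. The accession of dod-21 carries a suffix found on 172 loci of the tables. Whether the mirrored loci are copies, or share reads, was not tested, as no sequence was compared. The separate values of C32H11.9 and dod-21 are uncertain for that reason.

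**Figure D1:**
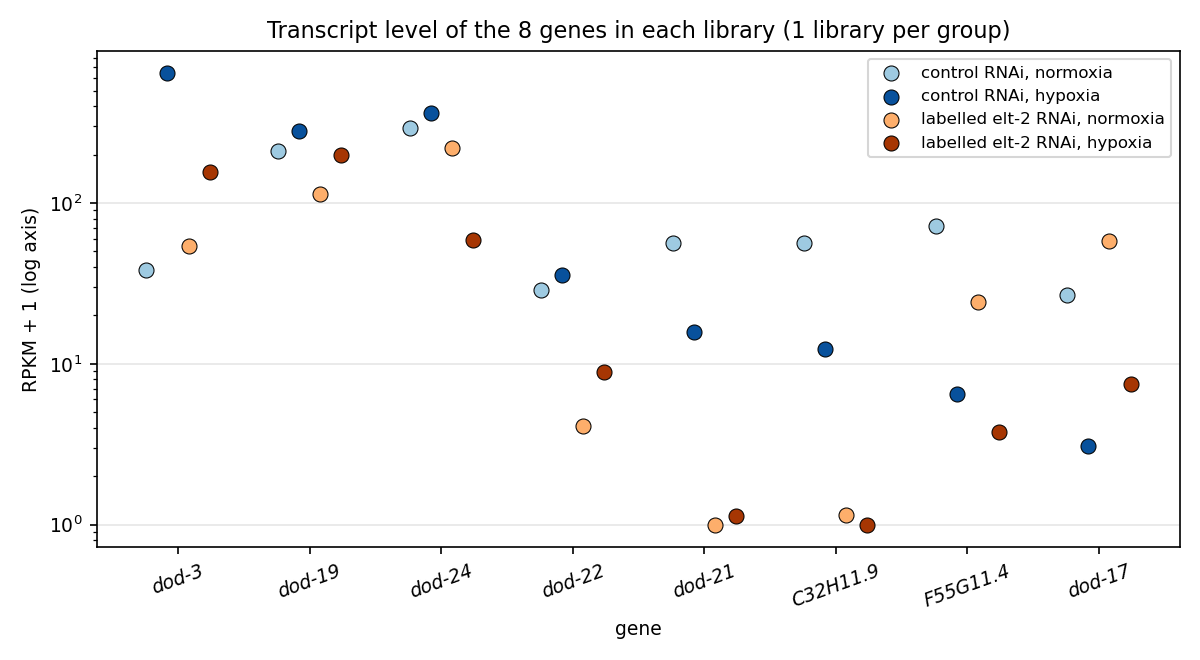
Transcript level of each of the 8 genes in each of the 4 libraries, as RPKM + 1 on a log axis, with 1 point per library. dod-3 stands at 641 RPKM on control food in hypoxia against 37.5 in normoxia, while dod-21 and C32H11.9 lie at or under 0.150 RPKM in both libraries labelled elt-2 RNAi.

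On control food in normoxia the levels per transcript length ran from 294 RPKM for dod-24 and 209 for dod-19 down to 27.8 for dod-22 and 26.0 for dod-17. F55G11.4 at 71.1, C32H11.9 at 55.6, dod-21 at 55.4 and dod-3 at 37.5 RPKM lay between. With 1 library per group, no spread is at hand to say which neighbours in this order differ. The order was different in every other library, with dod-3 first on control food in hypoxia, and on elt-2 food dod-24 first in normoxia and dod-19 first in hypoxia. Together the 8 genes held 0.0801% of the summed RPKM in normoxia and 0.120% in hypoxia on control food, and 0.0489% and 0.0394% on elt-2 food. The highest of these shares was in hypoxia on control food, where dod-3 alone was at 641 of 1353 RPKM summed over the 8.

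dod-3, the class 1 gene, was the one with by far the highest ratio under hypoxia in control RNAi. Control food gave 37.5 RPKM in normoxia and 641 in hypoxia, and elt-2 food gave 53.2 and 155 RPKM. It was higher in hypoxia with either food, by 17.1-fold on control food and by 2.91-fold on elt-2 food. The log2 ratio of (RPKM + 1), the scale of all log2 ratios here, was 4.06 on control food, which placed dod-3 at rank 12 from the highest of 10655 compared genes, and 1.52 (rank 430) on elt-2 food. The labelled elt-2 RNAi library was above control in normoxia (log2 ratio 0.49) and below it in hypoxia (-2.04, a level 4.15-fold lower). The log2 hypoxia ratio on elt-2 food minus that on control food was -2.54, at rank 26 from the lowest of all compared genes and with no replicate check.

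dod-24 and dod-19 were abundant in all libraries and close to level under hypoxia on control food. Control food gave dod-24 levels of 294 RPKM in normoxia and 363 in hypoxia, and elt-2 food gave 220.2 and 58.1 RPKM. Only the last of these 4 values stood apart, 6.24-fold under control food in hypoxia and 3.79-fold under elt-2 food in normoxia. Its hypoxia log2 ratio was 0.30 on control food and -1.90 on elt-2 food (rank 90 from the lowest), and the difference was -2.21 (rank 40 from the lowest).

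dod-19 was at 209 and 281 RPKM on control food in normoxia and hypoxia, and at 112 and 197 RPKM on elt-2 food. Its values stayed within 2-fold in each of the 4 comparisons, with log2 ratios of 0.43 and 0.81 for hypoxia and of -0.89 and -0.51 for labelled elt-2 RNAi. Among the 8 it had the smallest ratio between its highest and lowest library.

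dod-22 was low in both libraries labelled elt-2 RNAi. It was at 27.8 and 34.9 RPKM on control food in normoxia and hypoxia, and at 3.12 and 7.85 RPKM on elt-2 food. Labelled elt-2 RNAi was 8.91-fold under control in normoxia (log2 ratio -2.81, rank 60 from the lowest) and 4.45-fold under it in hypoxia (-2.02). The hypoxia log2 ratio was 0.32 on control food and 1.10 on elt-2 food, the second resting on 2 low values. Rescaling the libraries to the same sum put it at 0.96 and a pseudocount of 5 RPKM put it at 0.66, under 2-fold.

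dod-21 and C32H11.9 had the lowest labelled elt-2 RNAi values of the 8 genes. Control food gave dod-21 levels of 55.4 RPKM in normoxia and 14.8 in hypoxia, while elt-2 food had it listed at 0 in normoxia and at 0.127 RPKM in hypoxia. C32H11.9 was at 55.6 and 11.3 RPKM on control food and at 0.150 RPKM and a listed 0 on elt-2 food. Both were within 0.150 RPKM of 0 wherever the label was elt-2 RNAi. In normoxia their log2 ratios for labelled elt-2 RNAi were -5.82 and -5.62, ranks 3 and 5 from the lowest of all compared genes, and in hypoxia -3.81 and -3.62 (ranks 44 and 54).

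On control food, hypoxia put dod-21 3.75-fold lower (log2 ratio -1.84) and C32H11.9 4.91-fold lower (-2.20). On elt-2 food no ratio for hypoxia can be read for either gene, since both libraries were at or near 0. Their differences of hypoxia effects, 2.01 and 1.997, are therefore mostly the control value with its sign turned. The rest comes from the elt-2 food ratios of 0.17 for dod-21 and -0.20 for C32H11.9, which cannot be read.

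F55G11.4 and dod-17 are neighbours on the same strand with 701 bp between them, and both were lower in hypoxia with either food. For F55G11.4, control food gave 71.1 RPKM in normoxia and 5.49 in hypoxia, and elt-2 food gave 23.2 and 2.76 RPKM. Hypoxia was 13.0-fold under normoxia on control food (log2 ratio -3.47, rank 6 from the lowest) and 8.38-fold under it on elt-2 food (-2.68, rank 40). Its difference of hypoxia effects was 0.79. Labelled elt-2 RNAi was under control at both oxygen levels, with log2 ratios of -1.58 in normoxia and -0.79 in hypoxia.

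dod-17 was at 26.0 and 2.07 RPKM on control food in normoxia and hypoxia, and at 57.4 and 6.46 RPKM on elt-2 food. Its hypoxia log2 ratios of -3.13 and -2.97 were near each other (ranks 9 and 28 from the lowest), with a difference of 0.16. It alone of the 8 was above control under labelled elt-2 RNAi at both oxygen levels, by 2.21-fold in normoxia and 3.11-fold in hypoxia (log2 ratios 1.12 and 1.28, ranks 109 and 115 from the highest). So in the RNAi comparisons the values of these adjacent genes lay on opposite sides of control, while in the hypoxia comparisons they lay on the same side.

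**Figure D2:**
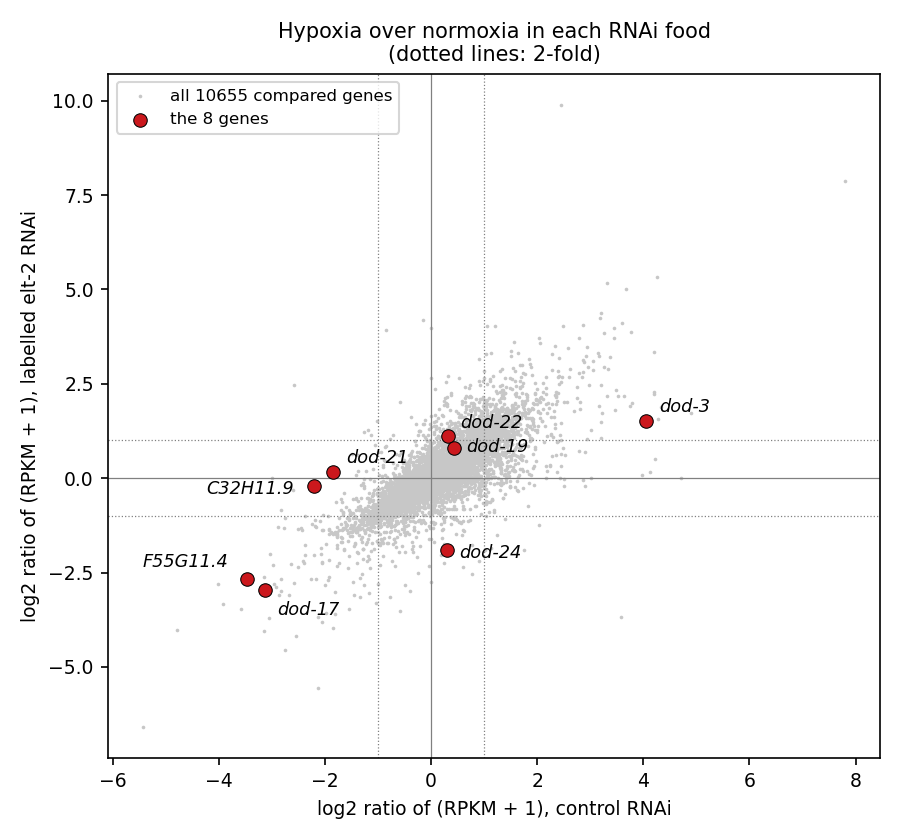
Hypoxia over normoxia as a log2 ratio of (RPKM + 1), on control food (horizontal axis) and on labelled elt-2 RNAi food (vertical axis), for the 8 genes in red and all 10655 compared genes in grey. F55G11.4 and dod-17 lie far below 0 on both axes, dod-3 is at 4.06 and 1.52, and dod-24 is at 0.30 and -1.90.

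Counted past 2-fold on the log2 scale of (RPKM + 1), hypoxia on control food had 1 of the 8 genes higher (dod-3), where 9.48% of all compared genes were that much higher, and 4 lower (dod-17, dod-21, F55G11.4 and C32H11.9), where 3.55% of all were. Nothing is read from these shares, since results of this contrast entered the choice of the genes. The median of the 8 was -0.77, beside 0.01 for all compared genes. On elt-2 food 2 were higher (dod-3 and dod-22; 9.87% of all genes) and 3 lower (dod-17, dod-24 and F55G11.4; 4.25% of all genes), and the median was -0.01, beside -0.01 for all. The median on elt-2 food is set by dod-21 and C32H11.9, whose ratios there cannot be read, and was -0.55 without these genes. Without them the median on control food turned from -0.77 to 0.31.

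**Figure D3:**
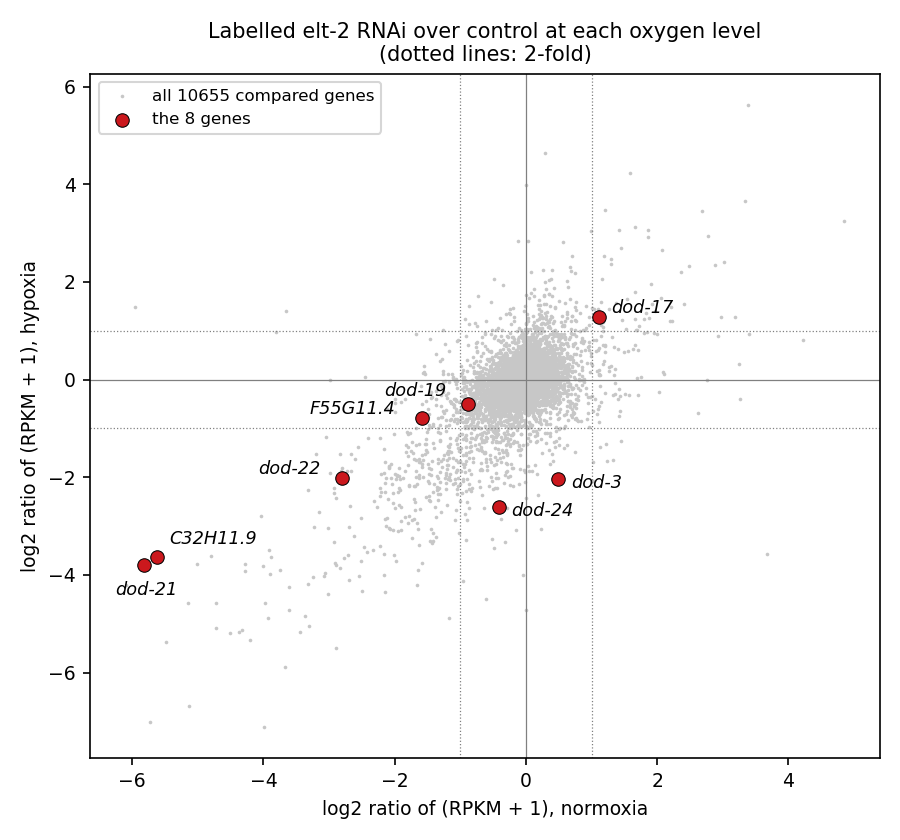
Labelled elt-2 RNAi over control as a log2 ratio of (RPKM + 1), in normoxia (horizontal axis) and in hypoxia (vertical axis), for the 8 genes in red and all 10655 compared genes in grey. dod-21 and C32H11.9 are at -5.82 and -5.62 in normoxia, dod-17 is above 2-fold at both oxygen levels, and dod-3 and dod-24 are past 2-fold in hypoxia but not in normoxia.

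For labelled elt-2 RNAi in normoxia, 4 of the 8 were lower (dod-21, dod-22, F55G11.4 and C32H11.9; 3.66% of all genes) and 1 higher (dod-17; 1.23% of all genes), and the median was -1.23, beside 0.04 for all. In hypoxia 5 were lower (dod-3, dod-21, dod-22, dod-24 and C32H11.9; 5.08% of all genes) and again dod-17 alone was higher (1.94% of all genes), with a median of -2.03, beside 0.05 for all. Here too the contrast entered the choice. dod-21, dod-22 and C32H11.9 were past 2-fold lower at both oxygen levels, dod-3 and dod-24 in hypoxia, and F55G11.4 in normoxia. At 4-fold, hypoxia on control food had dod-3 higher (1.39% of all genes) and dod-17, F55G11.4 and C32H11.9 lower (0.544%), and on elt-2 food 0 of the 8 higher (1.81%) with dod-17 and F55G11.4 lower (0.76%). elt-2 food in normoxia had 0 of the 8 higher at 4-fold (0.263% of all genes) and dod-21, dod-22 and C32H11.9 lower (1.09%), and in hypoxia 0 higher (0.357%) and the same 5 as at 2-fold lower (2.05%). For the difference of hypoxia effects, 2 of the 8 were past 2-fold lower (dod-3 and dod-24; 3.15% of all genes) and 2 higher (dod-21 and C32H11.9; 1.99% of all genes). At 4-fold these were dod-3 and dod-24 lower (0.497%) and dod-21 higher (0.244%). The differences of dod-21 and C32H11.9 include elt-2 food ratios that cannot be read, so which of them passed 4-fold carries no weight.

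In the authors' deposited table for normoxia against hypoxia on control food, dod-3 and F55G11.4 were called at an adjusted p of 0.0101 each, among 0.307% of loci called, and for dod-17 the adjusted p was 0.0645. Shares of loci called in this paragraph are over all 19852 loci, those under the filter included, not over the 10655 compared genes. In the authors' deposited table for the 2 libraries labelled elt-2 RNAi, dod-24 was called (adjusted p = 0.0417; 0.458% of loci called) and dod-17 had 0.0566. In the authors' deposited table for control against labelled elt-2 RNAi in normoxia, dod-21 was called (adjusted p = 0.0101; 0.337% of loci called), whereas C32H11.9 had 0.759. In the authors' deposited table for hypoxia, dod-3, dod-24 and C32H11.9 were called, each at 0.0101 (0.599% of loci called), whereas dod-21 had 0.947. Of the mirrored pair, the gene called in each RNAi comparison was the one listed at exactly 0 in the elt-2 RNAi library. These tests set 1 library against another and describe the libraries, not the conditions.

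The other genes of the chromosome IV stretch did not share 1 pattern. Of 21 other loci within 20 kb of the 6 genes, 9 were compared, the rest having a mean under 1 RPKM. Past 2-fold, hypoxia had 1 higher and 2 lower on control food and 2 higher and 2 lower on elt-2 food. Labelled elt-2 RNAi had 2 higher and 2 lower at each oxygen level. The shares of all compared genes past 2-fold, given above for each comparison, belong beside this and every later list count. C32H11.4 was at 76.6 and 42.9 RPKM on control food in normoxia and hypoxia and at 4.80 and 1.93 on elt-2 food, so it was low under the elt-2 label like dod-21 and dod-22. F55G11.2, whose locus starts 130 bp after that of dod-22 on the other strand, was at 14.2 and 2.96 RPKM on control food and at 1.15 and 0.0831 on elt-2 food. Because the treatment of strand is not stated in the labels, reads of convergent neighbours so close together may not be fully apart.

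K10D11.5 was at 6.57 and 13.3 RPKM on control food and at 10.2 and 99.4 RPKM on elt-2 food. Its hypoxia log2 ratios were 0.91 and 3.17, a difference of 2.25, opposite in sign to that of dod-24. F55G11.6 was under 1 RPKM in both control libraries (0.491 and 0.302) and at 5.81 and 1.99 RPKM on elt-2 food. F55G11.8, next to dod-22, was at 37.7 and 73.0 RPKM on control food and at 80.6 and 129 on elt-2 food, above control at both oxygen levels. C32H11.7 was close to level, from 86.6 to 117 RPKM. F55G11.7 was at 0.288 and 2.40 RPKM on control food and at 0.361 and 3.31 on elt-2 food. K10D11.2 and K10D11.6 had means near the filter, with 2.69 and 1.48 RPKM on control food in normoxia and 0.458 and 0.570 in hypoxia.

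**Figure D4:**
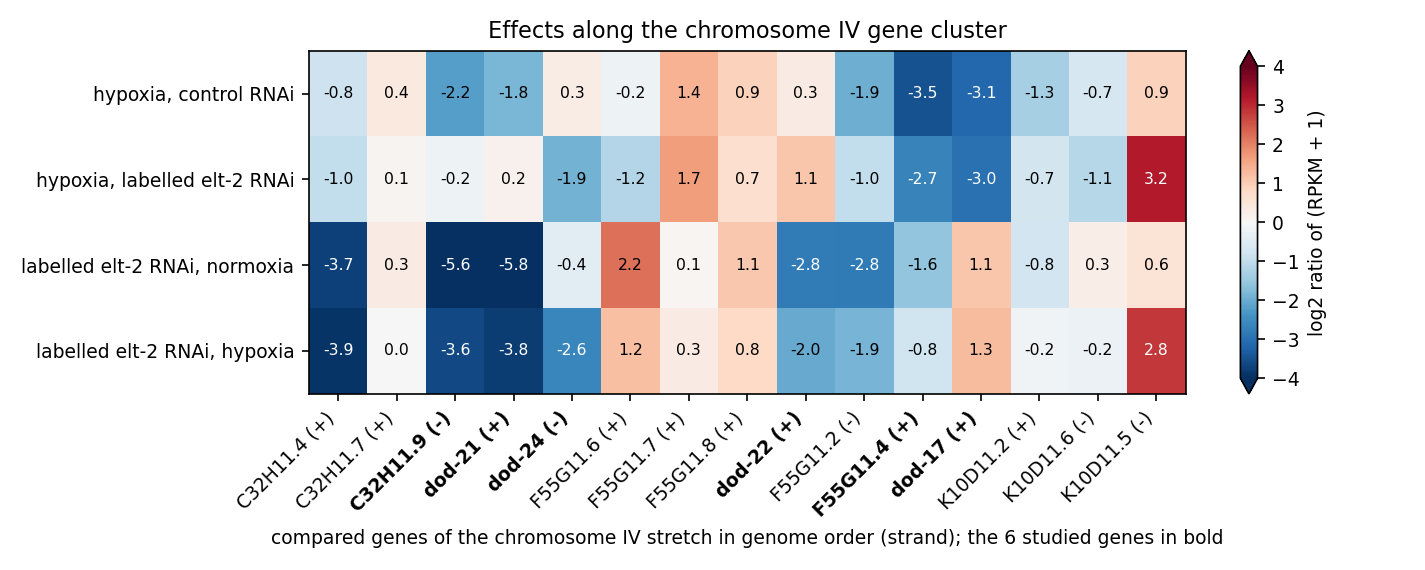
Log2 ratios of (RPKM + 1) in the 4 comparisons for the 15 compared genes of the chromosome IV stretch in genome order, with the 6 studied genes in bold and the strand in brackets. Blue columns at C32H11.4, C32H11.9, dod-21, dod-22 and F55G11.2 in both labelled elt-2 RNAi rows stand beside red or pale ones at F55G11.6, F55G11.8 and dod-17.

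On chromosome V, ZK6.11 (now irg-8, an infection response gene) lies next to dod-19 on the same strand, with values of 322 and 242 RPKM on control food and 124 and 170 on elt-2 food. Like dod-19 it was under control at both oxygen levels under the elt-2 label, with log2 ratios of -1.37 and -0.51. Of the other loci within 20 kb of dod-19 and dod-3, only Y39D8A.1 and C24B9.3 were compared, and neither was past 2-fold in any comparison on the scale of RPKM + 1. dod-3 itself sits among chemoreceptor genes listed at or near 0 in every library.

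Of the other dod genes, dod-18, dod-23, dod-6 and dod-20 were in the tables, and dod-20 had a mean under 1 RPKM. dod-23 was at 563 and 888 RPKM on control food in normoxia and hypoxia and at 206 and 740 on elt-2 food, with log2 ratios for labelled elt-2 RNAi of -1.45 in normoxia and -0.26 in hypoxia. dod-18 lay between 32.1 and 40.0 RPKM and dod-6 between 15.2 and 20.1 RPKM over the 4 libraries. The dod name thus covered values from level to strongly different between these libraries.

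By distance between centred log2 profiles over the 4 libraries, among 8007 genes whose mean reached 5 RPKM, the gene nearest to C32H11.9 was dod-21 (distance 0.41 on the log2 scale). The nearest to dod-21 was F49F1.1 (now drd-50; 0.34), at 74.0, 20.4, 0.101 and 0.163 RPKM in control normoxia, control hypoxia, elt-2 normoxia and elt-2 hypoxia. The aspartic protease gene asp-3 (0.29) and the saposin-like spp-23 (0.47) were nearest to dod-22, with asp-3 at 541, 808, 70.1 and 161 RPKM in the same order. F35E12.5 (now irg-5, an infection response gene; 0.78) and the dehydrogenase gene dhs-26 (0.79) were nearest to F55G11.4.

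Y43C5A.7 (now nssp-46; 0.28) and the antimicrobial peptide gene cnc-4 (0.97) were nearest to dod-17, with cnc-4 at 74.6, 14.9, 121 and 18.2 RPKM. K03H6.2 (now txt-4; 0.37) and Y49E10.18 (0.38) were nearest to dod-24, and pmp-4 (0.12) and F01D5.5 (0.15) to dod-19. The nearest to dod-3 were 2 loci that both bear the name F45D11.14 (0.56 and 0.60) and may be copies that share reads. Between the 8 genes themselves, distances ran up to 6.47 (dod-17 and dod-21), so they did not form 1 group by profile. These distances rest on 4 values a gene and say nothing of shared control.

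The insulin pathway list held the receptor and kinases upstream of DAF-16, daf-16 itself and further genes, among them pqm-1. Of 13 compared, hypoxia had 2 higher and 1 lower past 2-fold on control food and 1 higher and 1 lower on elt-2 food, and labelled elt-2 RNAi had none past 2-fold in either direction. pqm-1, a zinc finger factor known to act on class 2 genes, was at 17.4 and 48.2 RPKM on control food in normoxia and hypoxia and at 17.6 and 49.0 on elt-2 food. The kinase gene pdk-1 was at 16.5 and 6.91 on control food and at 15.3 and 6.87 RPKM on elt-2 food. The kinase gene sgk-1 had hypoxia log2 ratios of 1.03 and 0.81, and akt-2 of 0.40 and 0.93. The largest of these ratios were all between oxygen levels.

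Other class 1 targets of DAF-16 did not behave alike, nor like dod-3 as a list. Of 9 compared, 2 were past 2-fold higher and 1 lower in hypoxia on control food, and 3 higher and 2 lower on elt-2 food. Labelled elt-2 RNAi had 2 lower in normoxia and 3 lower in hypoxia, and none higher. The ferritin gene ftn-1, like dod-3, was higher in hypoxia with either food, with 63.7 RPKM in hypoxia on control food, 0.0692 and 3.06 RPKM on elt-2 food, and hypoxia log2 ratios of 3.75 and 1.92. The metallothionein mtl-1 was at 188 and 434 RPKM on control food and at 39.8 and 113 on elt-2 food. The lysozyme lys-7 had hypoxia log2 ratios of 0.38 and -1.02, and lys-8 of -0.14 and -0.75. The desaturase fat-5 was at -1.63 and -1.88, the superoxide dismutase sod-3 at -0.61 and -0.53, the catalases ctl-1 and ctl-2 at 0.54 and 0.27 on control food, and hsp-12.6 at 0.81 and 1.07.

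A list of 10 genes held intestinal GATA factors, the p38 kinase cascade of innate immunity, and also zip-2 and T24B8.5. Hypoxia on control food had 3 of the 10 higher (elt-2, elt-7 and elt-4) and 1 lower past 2-fold. The lower one was T24B8.5 (now sysm-1), an immune gene known to depend on the p38 kinase PMK-1, at 2203 and 146 RPKM on control food and at 60.8 and 5.16 RPKM on elt-2 food. Like F55G11.4 it was lower in hypoxia with either food and lower under the elt-2 label at both oxygen levels. elt-7 was at 5.38 and 16.1 RPKM on control food and at 5.96 and 12.8 on elt-2 food, and elt-4 at 1.42 and 6.10 against 0.640 and 3.36. The cascade genes tir-1, nsy-1, sek-1, pmk-1 and atf-7 stayed within 2-fold in all 4 comparisons on the scale of RPKM + 1, as did zip-2. Nearest to the threshold was tir-1, at hypoxia log2 ratios of 0.84 and 0.97.

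These are whole-animal libraries, so fewer cells of a type and less RNA per cell cannot be told apart. In which tissue the 8 genes were transcribed was not tested, since marker levels in whole animals cannot show it. Of 9 intestinal markers, none was at 0 in any library. Their summed level was 1615 RPKM in normoxia and 2925 in hypoxia on control food, and 588 and 1294 RPKM on elt-2 food. The largest parts of the control food sum in normoxia were asp-1 at 760 RPKM and mtl-2 at 529. On elt-2 food in normoxia asp-1 and mtl-2 were at 360 and 9.01 RPKM, while ifb-2 and ifd-2 were slightly above control (log2 ratios 0.13 and 0.23). The sum is therefore no measure of the markers as a set. Past 2-fold, hypoxia had 4 higher and 0 lower on control food and 5 higher and 1 lower on elt-2 food, and elt-2 food had 0 higher and 3 lower in normoxia and 2 higher and 3 lower in hypoxia. The brush border actin act-5 was at 154 and 297 RPKM on control food and at 89.9 and 386 on elt-2 food, and the filament gene ifb-2 at 26.6 and 101 against 29.2 and 231. In hypoxia on elt-2 food, where dod-24 was lowest, act-5, ifb-2, ifc-2, ifd-2 and opt-2 (now pept-1) were at their highest. The protease asp-1, the proton pump gene vha-6, the esterase ges-1 and the metallothionein mtl-2 were under control there, with log2 ratios of -1.89, -1.63, -0.80 and -7.01. The intestinal markers thus differed in opposite directions, and their part in the values of the 8 genes was not tested.

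Of the markers of other tissues, 3 of 5 compared in muscle, 2 of 4 in epidermis, 1 of 6 in neurons and 0 of 6 in germline were past 2-fold higher in hypoxia with either food, on the scale of RPKM + 1. Summed muscle markers ran from 423 to 457 RPKM in normoxia and from 1152 to 1196 in hypoxia, epidermis markers from 144 to 191 over all libraries, neuron markers from 232 to 267, germline markers from 2157 to 3255 and pharynx markers from 16.4 to 27.7, with none of the muscle, epidermis, neuron or germline markers at 0. Of the pharynx markers, phat-1 was at 0 in normoxia and phat-6 in hypoxia, both on control food. Between foods at the same oxygen level, none of the compared muscle, epidermis or germline markers was past 2-fold, while rab-3 among the neuron markers and phat-6 of the pharynx each were in 1 comparison on the same scale. The part of these markers in the values of the 8 genes was not tested.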

How the data were processed

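RNA of 4 libraries (read length 100 bp, 1 lane shared, per the labels' protocols) was deposited by the authors as RPKM per gene, per the file headers. The 6 tables hold 1 pair of libraries each, with 0 differing values between them. TopHat2 2.0.8b, Cufflinks 2.1.1 and ce10 appear in the submitters' processing notes without a role. For annotation, read filters and strand, the choice was not given in the sources used here. Beside the RPKM, the authors deposited a p-value and its adjusted form for each pair of libraries, called here at 0.05.

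Log2 ratios were computed here with Python 3.11.15 and pandas 2.3.3 from RPKM with a pseudocount of 1, so low genes have muted ratios. Compared genes had a mean of at least 1 RPKM, named 1 gene and had no status FAIL, HIDATA or LOWDATA, which left 10655 of 19852 loci and all 8 members. One library a group allows no test, so counts are of genes beyond 2-fold. The ratio step was tested on simulated data. Nothing in the labels gives separate cultures. Current symbols came from tables of the WBcel235 assembly by accession for 7 of the 8 members, exon counts from its Ensembl annotation, and coordinates from the files, counted from 1.

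Beyond the members, the text names elt-2, all members of a list with 10 or fewer compared genes or otherwise the 4 with the largest ratio, and the 2 genes nearest to each member by profile. The members and lists were chosen with earlier results of these data known. No list of homologues and no promoter search was made, since no sequence was used here. Read totals are not given. Among genes under 0.3 RPKM, 1 read was worth 0.998 (control food, hypoxia), 1.09 (elt-2 food, normoxia) and 0.874 (elt-2 food, hypoxia) of its value for control food in normoxia, from a search near equal depth. Absolute depth is unknown, so no counting interval is given. Alternatives were other pseudocounts, filters, centring, scaling, and a threshold of 4-fold.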

Additional observations from a re-analysis of the deposited data

Results flagged for a closer look

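For 3 of the 8 genes, effects of opposite sign, of any size, were seen in the 2 groups of a contrast. The share of all compared genes that meet this rule was not counted, so nothing is read from the number. Each effect rests on 1 library against another, and the difference between the effects was not tested. dod-3 on elt-2 food stood above control food in normoxia (log2 ratio 0.49) and under it in hypoxia (-2.04). For dod-24, the log2 ratio of hypoxia over normoxia was 0.30 on control food and -1.90 on elt-2 food. For dod-21 the same hypoxia ratios were -1.84 and 0.17, the second between a library listed at 0 and one at 0.127 RPKM, so its sign carries no weight.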

How the results depend on the processing

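No paired analysis was possible because each group has 1 library. Of 350 ratios recomputed for the 8 genes, 335 kept their side of the threshold, 12 dropped under it, 3 passed it and 0 changed direction past it. Alternatives that changed only the filter left these ratios as they were by construction, so much of this count was fixed in advance. The threshold of 4-fold also left the ratios unchanged and moved only the line. Under the threshold, the difference of hypoxia effects of dod-17 turned from 0.16 to -0.32 with a pseudocount of 5 RPKM. With a pseudocount of 0.1 RPKM the hypoxia ratios on elt-2 food of dod-21 and C32H11.9 were 1.18 and -1.32, both between near-0 values, the difference of hypoxia effects of C32H11.9 was 0.96, and 1 gene was past 2-fold higher for that difference. With a pseudocount of 5 RPKM, dod-17 was at 0.70 for labelled elt-2 RNAi in hypoxia (0 genes higher there), dod-22 at 0.66 for hypoxia on elt-2 food (1 gene higher) and F55G11.4 at 1.00 for the difference. Rescaling to the same sum put dod-22 at 0.96 (1 gene higher), and moved the median of all genes to -0.18 and -0.17 for hypoxia on control and elt-2 food. A threshold of 4-fold was missed for hypoxia by dod-21 on control food (-1.84) and by dod-3, dod-22 and dod-24 on elt-2 food (1.52, 1.10 and -1.90; 0 genes higher), for labelled elt-2 RNAi in normoxia by dod-17, F55G11.4 and the median of the 8 (1.12, -1.58 and -1.23; 0 genes higher), in hypoxia by dod-17 (1.28; 0 genes higher) and for the difference by C32H11.9 (1.997; 1 gene higher). With the status OK only, dod-21 and C32H11.9 were left out because the authors' table for the libraries labelled elt-2 RNAi did not test them. By that construction, 2 genes were lower in hypoxia on control food, 2 and 3 were lower for labelled elt-2 RNAi in normoxia and hypoxia, 0 were higher for the difference, and the median for labelled elt-2 RNAi in normoxia was -0.65. The median for hypoxia turned from -0.77 to 0.31 on control food and went from -0.01 to -0.55 on elt-2 food, where a pseudocount of 0.1 RPKM gave -0.26. Centring on the median gene ended no call among the 8. Dropping the low-value filter, raising it to 5 RPKM and keeping loci that name several genes could end none. All 8 passed each of these filters, and their ratios did not change. Over all compared genes, those past 2-fold higher in hypoxia on control food numbered 1010, and 464 with a pseudocount of 5 RPKM or 655 with the mean raised to 5 RPKM. Those lower there numbered 378, and 657 after rescaling. For the difference, those higher numbered 212, and 358 with a pseudocount of 0.1 RPKM. Higher for labelled elt-2 RNAi in hypoxia were 207, and 88 with a pseudocount of 5 RPKM. Higher for hypoxia on elt-2 food were 1052, 528 with that pseudocount and 838 after rescaling. With the status OK only, 346 were lower in hypoxia on control food. Under that setting 341 and 476 were lower for labelled elt-2 RNAi in normoxia and hypoxia, and 186 higher for the difference. The homologue cutoff and the one-strand promoter search were not run. Depth is unknown, so no counting interval can be set on the lowest values.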
